A study of Mus musculus with 24 samples.

Results

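Thrombospondins, tenascins, periostin, osteonectin and cartilage oligomeric matrix protein are the matricellular proteins followed here, in endothelial-enriched cells sorted from the aorta and skeletal muscle of mice that lacked or carried galectin-3 and ate chow or a high-fat diet (HFD). The 9 genes are Thbs1, Thbs2, Thbs3, Thbs4, Comp, Tnc, Tnxb, Sparc and Postn, out of 18539 gene symbols on the array. They were taken as all non-control probes whose transcript accession belongs to 1 of these genes, which gave 15 of 41174 probes. Where a gene had several probes, the brightest in a tissue stands for it. In aorta 12 of the 15 probes, and in muscle 11, cleared background on all arrays of 1 group or more, and each of the 9 genes was among them in both tissues.

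Matricellular proteins are secreted into the extracellular matrix but are regulators more than building blocks of it. They bind collagens, integrins, proteases and growth factors and change how cells adhere, migrate and respond to signals. Many are made during development and again after injury, when fibroblasts, smooth muscle cells, endothelial cells and macrophages can all be sources. In vessels the thrombospondins that form trimers, Thbs1 and Thbs2, are known as inhibitors of angiogenesis that act through CD36 and CD47, and Thbs1 can release TGF-beta from its latent form.

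The study compared male C57BL/6 J wild-type mice (WT) with B6.Cg-Lgals3tm1Poi/J mice (KO), in which the gene for galectin-3, a lectin that binds beta-galactosides, is disrupted in every cell. From 8 weeks of age the mice were fed for 8 weeks either chow, with 12% of calories from fat, or HFD, with 60%. Cells bearing CD105 and lacking the leukocyte antigen CD45 were sorted live, about 10000 from each tissue, and their RNA was amplified from the 3′ end and hybridised to single-colour arrays. The 8 groups of tissue, genotype and diet had 3 arrays each, from 3 separate experiments, and each array held RNA pooled from several mice, 3 by the methods. Aorta and muscle of a genotype, diet and experiment came from the same mice. The p-values therefore describe the spread between pools, not between single mice, over 3 experiments. In sorted cells measured in bulk, fewer cells of a type and less RNA per cell cannot be told apart.

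A level is the log2 of a probe's processed intensity over the 75th percentile of the same array, so a level of 0 equals that percentile. Levels of different probes are not comparable, and each gene is compared only with itself. The 75th percentile lay between 2390 and 5938 intensity units, between 59.5% and 75.7% of spots were well above background, and no spot was saturated. All 14 endothelial markers were well above background on every array, Pecam1 and Cdh5 among them. Lgals3 itself was well above background on 24 of 24 arrays and higher on the KO than on the WT array in 11 of 12 pairs, with medians of 4.02 against 2.44 in aorta and 5.06 against 3.96 in muscle. The place of its probe in the disrupted gene was not analysed here. Per the methods, the deletion takes out exons that include the initiating codon, and the array's probes are biased to the 3′ end. The paper reported the loss of galectin-3 in genomic DNA, in RNA with primers inside the deleted region, and in aortic protein. What the probe's signal on the KO arrays means for galectin-3 protein was not tested. The 1 pair with Lgals3 lower in KO was the HFD aorta of experiment 1, at 2.40 in KO and 3.20 in WT. An index of genotype was built from 35 probes that differed between KO and WT in experiments 2 and 3, scaled to 0 for WT and 1 for KO. The 4 HFD arrays of experiment 1 had values of 0.20 and 0.39 under the WT label and 0.33 and 0.38 under the KO label, whereas the other 20 arrays lay between −0.19 and 0.11 in WT and between 0.82 and 1.26 in KO. The arrays of experiments 2 and 3 had served to choose the probes, so their values near 0 and 1 are no check. The chow arrays of experiment 1 had not, and had 0.042 and 0.084 in WT and 1.02 and 0.91 in KO. Genotypes below are those of the labels, and values without experiment 1 stand beside the main results of diet and genotype.

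The 250 bases before the annotated start (RefSeq, GRCm38.p6) are printed for 6 genes, written 5′ to 3′ in the direction of transcription, so that members that moved together can be set beside their upstream sequence. RefSeq windows were at hand for 7 of the 9 genes. Motifs were searched on both strands and are in capitals: TATAAA (the TATA box, in 12.4% of 32851 windows of the same length), GGGCGG (GC box, 32.7%), TGANTCA (AP-1, 6.75%), GGAATG (TEAD, 12.6%) and GTCTAGAC (SMAD, 0.167%). The E-box CANNTG, in 66.2% of windows, was counted but is not capitalised. A match describes these letters alone.
Thbs2, chr17:14694263-14694512, minus strand: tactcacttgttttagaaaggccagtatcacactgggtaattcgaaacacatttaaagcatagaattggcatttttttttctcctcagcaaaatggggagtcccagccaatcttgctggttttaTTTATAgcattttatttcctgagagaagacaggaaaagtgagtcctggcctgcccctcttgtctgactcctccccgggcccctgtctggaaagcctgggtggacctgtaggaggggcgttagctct
Thbs3, chr3:89214930-89215179, plus strand: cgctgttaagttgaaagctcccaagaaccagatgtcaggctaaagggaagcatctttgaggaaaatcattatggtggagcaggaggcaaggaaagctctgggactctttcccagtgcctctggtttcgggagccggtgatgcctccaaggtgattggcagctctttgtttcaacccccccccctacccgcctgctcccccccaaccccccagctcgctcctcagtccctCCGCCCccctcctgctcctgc
Thbs4, chr13:92794819-92795068, minus strand: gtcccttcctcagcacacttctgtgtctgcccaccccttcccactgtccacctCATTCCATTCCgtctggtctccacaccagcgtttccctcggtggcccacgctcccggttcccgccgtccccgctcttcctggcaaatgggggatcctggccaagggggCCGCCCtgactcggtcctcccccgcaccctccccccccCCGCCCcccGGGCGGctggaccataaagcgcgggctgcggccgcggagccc
Tnc window 1, chr4:64047016-64047265, minus strand: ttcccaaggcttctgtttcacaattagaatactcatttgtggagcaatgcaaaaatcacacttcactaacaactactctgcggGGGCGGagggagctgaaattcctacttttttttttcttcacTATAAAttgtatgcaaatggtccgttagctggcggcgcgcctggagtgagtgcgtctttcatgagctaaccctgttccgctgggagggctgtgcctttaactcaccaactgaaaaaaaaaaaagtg
Tnxb, chr17:34670285-34670534, plus strand: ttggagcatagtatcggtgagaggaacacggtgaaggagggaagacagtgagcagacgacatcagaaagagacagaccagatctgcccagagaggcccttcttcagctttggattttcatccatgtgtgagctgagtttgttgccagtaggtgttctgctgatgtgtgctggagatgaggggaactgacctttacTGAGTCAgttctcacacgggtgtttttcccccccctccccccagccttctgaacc
Postn window 1, chr3:54359017-54359266, plus strand: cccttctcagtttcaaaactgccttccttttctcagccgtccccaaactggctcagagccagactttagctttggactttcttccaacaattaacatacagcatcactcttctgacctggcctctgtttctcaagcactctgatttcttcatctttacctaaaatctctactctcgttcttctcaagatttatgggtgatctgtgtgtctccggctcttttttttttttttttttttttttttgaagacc
Postn window 2, chr3:54360857-54361106, plus strand: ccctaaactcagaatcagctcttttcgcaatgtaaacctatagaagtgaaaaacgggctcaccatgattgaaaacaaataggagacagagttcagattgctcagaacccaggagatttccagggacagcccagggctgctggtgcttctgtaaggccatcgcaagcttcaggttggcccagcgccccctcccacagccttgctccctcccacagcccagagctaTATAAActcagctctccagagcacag

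Tnc and the second Postn window had a TATA box in the sense direction, 126 and 26 bases before the start, and Tnc also had a GC box at 167, while Thbs2 had a TATA box on the opposite strand, also at 126. The first Postn window held none of the capitalised motifs and was AT-rich, with 40.4% GC against a median of 52.4% over all windows. Thbs4 had the most GC of these windows, 70.8%, with 3 GC boxes and 2 overlapping TEAD matches. Thbs3 (58.8% GC) had 1 GC box on the opposite strand, and Tnxb (52.4%) had 1 AP-1 match, 55 bases before its start. None of the capitalised motifs was shared by Thbs3, Tnxb and Thbs2, whose levels ran closely together over the arrays of both tissues taken as 1 set.

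Most matricellular genes were higher in cells from aorta than in cells from muscle. Of the 9 genes, 7 passed the test with a higher level in aorta (adjusted p under 0.05 over 27387 probes), where 16% of all probes did so and 46.1% passed in either direction. Thbs3, Tnxb and Comp, the members with the steepest differences, were 23.4-, 17.6- and 16.3-fold higher, and for them the lowest of 12 aortic arrays lay above the highest of 12 muscle arrays, which held for 3.45% of all probes. The brightest probes of Sparc and Thbs4 had the lower mean in aorta, by −0.030 and −1.54 on the log2 scale, and neither was called. The median of the 9 differences was 2.41 against −0.27 over all probes, of which 32.6% were above 0. Of the probes called, 34.6% were higher in aorta, and 58.9% with the deposited log2 table, whose scaling moved the median of all probes to −0.0076 and left 7 members called. Sparc changed sign with that table, to 0.24.

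**Figure D1:**
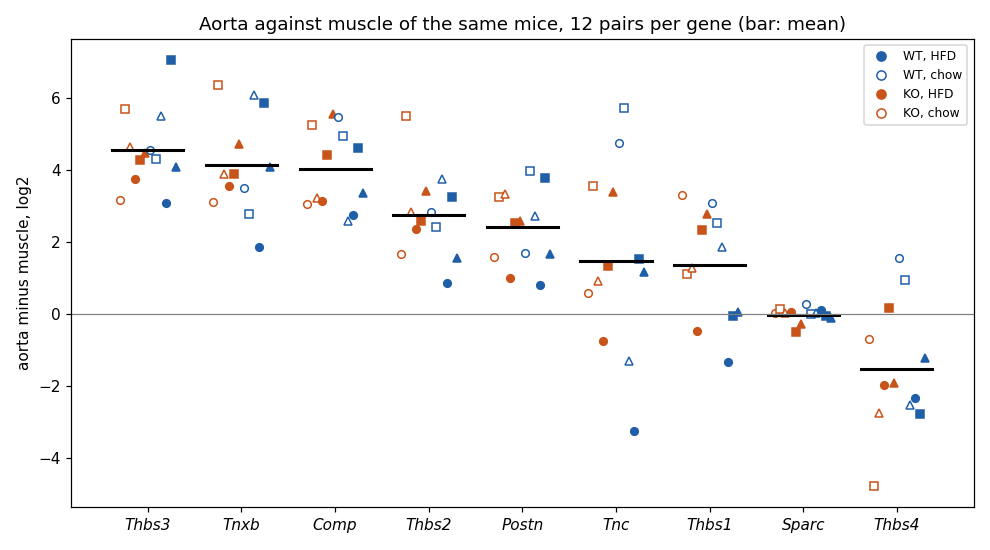
Log2 difference between aorta and muscle cells of the same mice for each gene (y axis), 12 pairs per gene, filled for HFD and open for chow, with the mean as a bar and genes ordered by it. Thbs3, Tnxb, Comp, Thbs2 and Postn were above 0 in 12 of 12 pairs, Thbs4 in 3. The share of all probes above 0 in 12 of 12 pairs was not computed.

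Of the trimeric thrombospondins, Thbs1 is the one stored in platelets and made by stressed endothelium. Thbs1 had lowest, median and highest levels over 12 arrays each of −4.49, −2.88 and −1.28 in aorta and −6.24, −4.03 and −2.98 in muscle. Both tissues were dim for this gene and their arrays overlapped. Thbs1 differed by 1.37 (SE 0.36, limma adjusted p = 0.00456), and 9 of 12 same-mice pairs were above 0, over a range of −1.33 to 3.31. Thbs1 in aorta averaged −2.30 ± 0.84 in WT and −2.29 ± 0.67 in KO on chow, and −4.01 ± 0.48 and −2.49 ± 1.11 on HFD (SD, n = 3). Thbs1 in muscle averaged −4.78 ± 1.27 in WT and −4.19 ± 1.23 in KO on chow, and −3.56 ± 0.40 and −4.03 ± 1.03 on HFD. Thbs1 means ran from high to low as KO chow, WT chow, KO HFD, WT HFD in aorta and WT HFD, KO HFD, KO chow, WT chow in muscle. The aortic mean of WT HFD was below that of KO HFD by more than either SD, and no other neighbouring groups in either tissue were so far apart. Among the muscle WT chow arrays, that of experiment 1 was not well above background. In WT HFD the mean difference between tissues was −0.45 ± 0.77, above 0 in 1 of 3 pairs, whereas in the other groups it lay between 1.54 and 2.49. Without experiment 2 the difference was 1.31 (adjusted p = 0.0622), and with the slide as a random block the adjusted p was 0.0580. A second probe, well above background on 5 arrays, gave 0.41 (adjusted p = 0.480 over all probes without the filter), and the remaining one was well above background on no array.

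Thbs2, its close relative, is made mainly by fibroblasts and smooth muscle cells and clears the protease MMP-2 through LRP1. Thbs2 had lowest, median and highest levels over 12 arrays each of −1.31, −0.20 and 1.71 in aorta and −5.90, −2.97 and −0.53 in muscle. The tissues overlapped at their edges, where the dimmest aortic arrays lay below the brightest muscle arrays. Thbs2 differed by 2.75 (SE 0.48, limma adjusted p = 0.000143), and 12 of 12 same-mice pairs were above 0, over a range of 0.87 to 5.50. Thbs2 in aorta averaged 0.16 ± 0.99 in WT and −0.34 ± 0.10 in KO on chow, and −0.39 ± 0.85 and 0.65 ± 1.00 on HFD (SD, n = 3). Thbs2 in muscle averaged −2.84 ± 1.15 in WT and −3.67 ± 2.04 in KO on chow, and −2.28 ± 1.54 and −2.13 ± 1.52 on HFD. Thbs2 means ran from high to low as KO HFD, WT chow, KO chow, WT HFD in aorta and KO HFD, WT HFD, WT chow, KO chow in muscle. No neighbouring groups in either tissue were further apart than both their SDs.

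Thbs3 belongs to the pentameric thrombospondins, which lack the anti-angiogenic repeats and bind collagens. Thbs3 had lowest, median and highest levels over 12 arrays each of 3.60, 4.91 and 5.18 in aorta and −2.04, −0.17 and 2.03 in muscle. The tissues were far apart, with no overlap. Thbs3 differed by 4.55 (SE 0.40, limma adjusted p = 4.80e-08), and 12 of 12 same-mice pairs were above 0, over a range of 3.08 to 7.05. Thbs3 in aorta averaged 4.64 ± 0.90 in WT and 4.21 ± 0.54 in KO on chow, and 4.75 ± 0.55 and 4.65 ± 0.85 on HFD (SD, n = 3). Thbs3 in muscle averaged −0.14 ± 0.69 in WT and −0.30 ± 0.79 in KO on chow, and 0.0039 ± 2.04 and 0.48 ± 1.15 on HFD. Thbs3 means ran from high to low as WT HFD, KO HFD, WT chow, KO chow in aorta and KO HFD, WT HFD, WT chow, KO chow in muscle. Within a tissue the 4 groups did not separate beyond their spread.

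Comp, the pentameric thrombospondin of cartilage and tendon, also links collagen fibrils and is made by vascular smooth muscle. Comp had lowest, median and highest levels over 12 arrays each of 2.19, 4.32 and 5.62 in aorta and −2.40, 0.63 and 1.84 in muscle. No muscle array reached the lowest aortic array. Comp differed by 4.03 (SE 0.45, limma adjusted p = 8.39e-07), and 12 of 12 same-mice pairs were above 0, over a range of 2.59 to 5.56. Comp in aorta averaged 3.60 ± 0.99 in WT and 3.53 ± 1.25 in KO on chow, and 4.62 ± 0.52 and 4.88 ± 0.78 on HFD (SD, n = 3). Comp in muscle averaged −0.74 ± 1.79 in WT and −0.32 ± 0.90 in KO on chow, and 1.06 ± 0.66 and 0.52 ± 1.78 on HFD. Comp means ran from high to low as KO HFD, WT HFD, WT chow, KO chow in aorta and WT HFD, KO HFD, KO chow, WT chow in muscle. In aorta the means of both HFD groups were above those of both chow groups, and the step from WT HFD down to WT chow exceeded both SDs. In muscle the HFD groups were also the upper pair, but no step exceeded the spread.

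Thbs4, the pentameric member of tendon, heart and skeletal muscle, is induced on pressure overload and acts in the endoplasmic reticulum as well as in the matrix. Thbs4 had lowest, median and highest levels over 12 arrays each of −3.55, 1.42 and 4.20 in aorta and −0.79, 2.94 and 4.51 in muscle. The tissues overlapped over most of their span, and aorta had the wider range and the lowest arrays. Thbs4 differed by −1.54 (SE 0.68, limma adjusted p = 0.0721), and 3 of 12 same-mice pairs were above 0, over a range of −4.79 to 1.56. Thbs4 in aorta averaged 1.63 ± 2.35 in WT and −1.10 ± 3.29 in KO on chow, and 1.23 ± 0.83 and 2.47 ± 1.17 on HFD (SD, n = 3). Thbs4 in muscle averaged 1.65 ± 1.30 in WT and 1.66 ± 2.17 in KO on chow, and 3.36 ± 0.74 and 3.72 ± 0.69 on HFD. Thbs4 means ran from high to low as KO HFD, WT chow, WT HFD, KO chow in aorta and KO HFD, WT HFD, KO chow, WT chow in muscle. No neighbouring groups in either tissue were further apart than both their SDs. The lower level in aorta passed the test without experiment 1 (−1.87, adjusted p = 0.0248) and with the same mice as a block (adjusted p = 0.0144). A second probe, well above background on 24 of 24 arrays, had the opposite sign, 0.95 (adjusted p = 0.156), so the direction for Thbs4 depends on the probe.

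Tenascin-C, the product of Tnc, is scarce in healthy adult tissue and appears at sites of injury, inflammation and mechanical load, where it can activate TLR4. Tnc had lowest, median and highest levels over 12 arrays each of −5.83, −2.73 and −0.87 in aorta and −8.42, −4.35 and −1.69 in muscle. The levels lay far below the 75th percentile in both tissues, and the tissues overlapped. Tnc differed by 1.46 (SE 0.54, limma adjusted p = 0.0334), and 9 of 12 same-mice pairs were above 0, over a range of −3.25 to 5.72. Tnc in aorta averaged −4.0 ± 1.70 in WT and −3.34 ± 1.25 in KO on chow, and −3.37 ± 1.41 and −1.76 ± 0.84 on HFD (SD, n = 3). Tnc in muscle averaged −7.04 ± 2.19 in WT and −5.02 ± 0.84 in KO on chow, and −3.18 ± 1.38 and −3.08 ± 1.24 on HFD. Tnc means ran from high to low as KO HFD, KO chow, WT HFD, WT chow in aorta and KO HFD, WT HFD, KO chow, WT chow in muscle. In aorta the KO HFD mean was above that of KO chow by more than either SD. In muscle the means of both HFD groups were above those of both chow groups, and the step from WT HFD to KO chow exceeded both SDs. Of the 3 muscle WT chow arrays, 1 was well above background. The tissue difference was 0.68 (adjusted p = 0.490) without experiment 2, and the call was also lost with the same mice as a block (adjusted p = 0.0828) and with the slide as a random block (adjusted p = 0.179).

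Tenascin-X, encoded by Tnxb, is the tenascin of loose connective tissue and governs collagen fibril spacing. Tnxb had lowest, median and highest levels over 12 arrays each of 1.86, 3.20 and 4.31 in aorta and −3.24, −1.02 and 1.33 in muscle. The aortic arrays lay entirely above the muscle arrays. Tnxb differed by 4.14 (SE 0.43, limma adjusted p = 3.09e-07), and 12 of 12 same-mice pairs were above 0, over a range of 1.85 to 6.36. Tnxb in aorta averaged 3.01 ± 0.99 in WT and 2.75 ± 0.48 in KO on chow, and 3.38 ± 0.55 and 3.82 ± 0.55 on HFD (SD, n = 3). Tnxb in muscle averaged −1.11 ± 1.25 in WT and −1.70 ± 1.53 in KO on chow, and −0.55 ± 1.67 and −0.23 ± 1.16 on HFD. Tnxb means ran from high to low as KO HFD, WT HFD, WT chow, KO chow in aorta and KO HFD, WT HFD, WT chow, KO chow in muscle. Every step in this order was inside the spread of the groups. A dimmer probe, well above background on 18 arrays, gave 2.28 (adjusted p = 0.000303).

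Sparc encodes osteonectin, a collagen-binding protein that endothelial cells make in quantity. Sparc had lowest, median and highest levels over 12 arrays each of 6.06, 6.25 and 6.71 in aorta and 6.05, 6.27 and 7.20 in muscle. The arrays of the tissues covered the same range, and only in muscle did 1 array stand apart at the top. Sparc differed by −0.030 (SE 0.12, limma adjusted p = 0.849), and 8 of 12 same-mice pairs were above 0, over a range of −0.50 to 0.26. Sparc in aorta averaged 6.23 ± 0.22 in WT and 6.24 ± 0.037 in KO on chow, and 6.38 ± 0.16 and 6.39 ± 0.32 on HFD (SD, n = 3). Sparc in muscle averaged 6.14 ± 0.080 in WT and 6.18 ± 0.032 in KO on chow, and 6.40 ± 0.10 and 6.63 ± 0.50 on HFD. Sparc means ran from high to low as KO HFD, WT HFD, KO chow, WT chow in aorta and KO HFD, WT HFD, KO chow, WT chow in muscle. In muscle the WT HFD mean was above that of KO chow by more than either SD, and elsewhere neighbouring groups did not separate. The second Sparc probe gave 0.074 between the tissues (adjusted p = 0.595).

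Periostin, from Postn, is a matrix protein of fibroblasts and osteoblast precursors that binds integrins and cross-links collagen. Postn had lowest, median and highest levels over 12 arrays each of 2.63, 3.89 and 5.07 in aorta and −0.072, 1.71 and 2.93 in muscle. The lower end of the aortic arrays ran into the upper end of the muscle arrays. Postn differed by 2.41 (SE 0.28, limma adjusted p = 1.69e-06), and 12 of 12 same-mice pairs were above 0, over a range of 0.80 to 3.98. Postn in aorta averaged 3.46 ± 0.72 in WT and 4.24 ± 0.89 in KO on chow, and 3.67 ± 0.18 and 4.22 ± 0.28 on HFD (SD, n = 3). Postn in muscle averaged 0.66 ± 0.64 in WT and 1.53 ± 0.36 in KO on chow, and 1.59 ± 1.35 and 2.20 ± 0.65 on HFD. Postn means ran from high to low as KO chow, KO HFD, WT HFD, WT chow in aorta and KO HFD, WT HFD, KO chow, WT chow in muscle. KO groups were above WT groups of the same diet in both tissues, and the steps from KO HFD to WT HFD in aorta and from KO chow to WT chow in muscle exceeded both SDs.

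**Figure D2:**
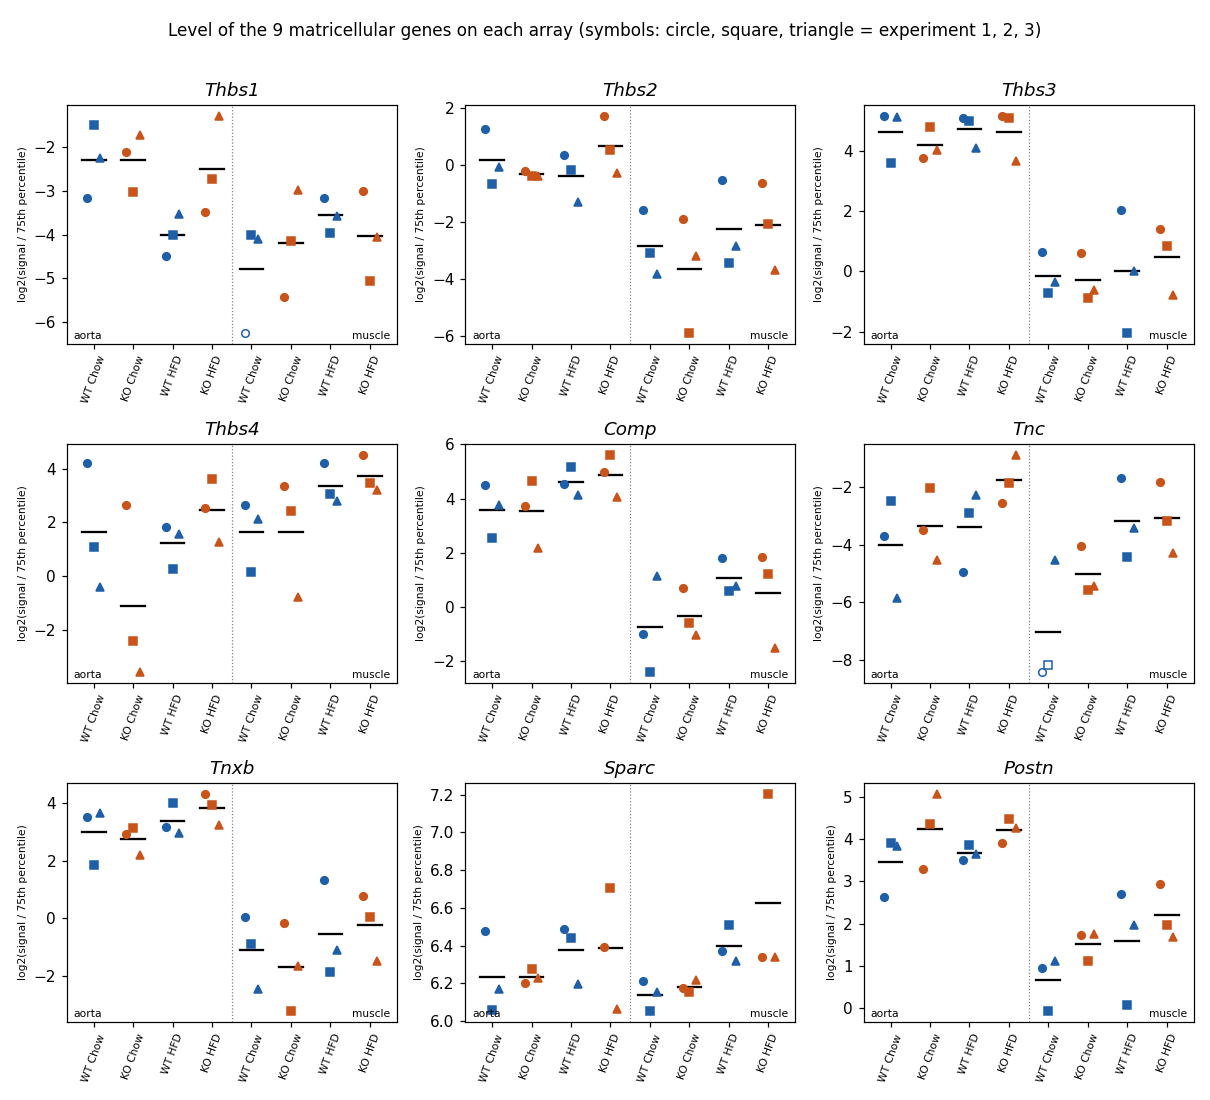
Log2 level (y axis) of each gene on every array, 1 panel per gene, with the 4 groups of genotype and diet for aorta left of the dotted line and for muscle right of it. Circles, squares and triangles are experiments 1, 2 and 3, blue is WT and orange KO, open symbols were not well above background and bars are means of 3 arrays. Of 54 steps between neighbouring group means, 7 exceeded both SDs.

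Markers of other cell types differed between the tissues alongside these genes. Among 12 fibroblast markers 12 were higher in aorta, with a median difference of 4.48, and their mean level ran from 3.63 to 5.50 on the aortic arrays and from −0.96 to 2.86 on the muscle arrays. All 12 were well above background on every aortic array, as were 11 or 12 on each muscle array. Of 14 endothelial markers 13 were lower in aorta, with a median of −1.06 and mean levels of 2.34 to 4.29 against 4.47 to 4.87. Eng, which encodes the sort antigen CD105, was among them at −1.08. The tendon and cartilage list had 6 of 11 higher and 1 lower, the smooth muscle list 1 of 9 higher and 5 lower, and all 9 markers of skeletal muscle fibres were lower. The part of these cell types in the tissue differences was not tested.

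Other genes with related roles also differed. Of 20 further matricellular genes tested, out of 25 in the list, 15 were higher in aorta and 2 lower, with a median of 2.03. The 5 largest were Fbln1 (7.45), which encodes fibulin-1, Ccn5 (7.34), Smoc1 (7.13), the TGF-beta-induced gene Tgfbi (5.67) and Ccn4 (5.61), and the lower ones were Fbln2 (−0.59) and the endothelial Sparc relative Sparcl1 (−0.56). Fbln1 also counts among the fibroblast markers. Receptors of the members were split more evenly, with 12 of 22 higher and 6 lower and a median of 0.85. Egfr, a receptor for tenascin-C repeats, was 3.25 higher, the integrin subunit Itga8 3.10, the scavenger receptor Lrp1 2.88 and the lipoprotein receptor Vldlr 2.74, while the laminin-binding subunit Itga6 had −2.42. In the TGF-beta axis 9 of 20 tested genes were higher and 3 lower. Among the higher were the latent-TGF-beta binding proteins Ltbp2 (5.93) and Ltbp3 (3.55), the signal transducer Smad3 (2.82) and the ligand Tgfb3 (2.63), and the lower ones were the ligand Tgfb1 (−1.44) and the endothelial receptors Eng (−1.08) and Acvrl1 (−1.05).

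In muscle the mean difference between HFD and chow, averaged over the genotypes, was above 0 for the brightest probe of 9 of 9 matricellular genes. A second Tnxb probe was below 0. Tnc and Thbs4 led, but no member passed the adjusted test. By limma, 0 of 9 were called, where 0.288% of 25682 probes were, and 4 of 9 were higher at an unadjusted p under 0.05, where 7.28% of probes were. The median of the 9 was 1.01 against −0.0080 over all probes, of which 49.0% were above 0. Without experiment 1, 8 of 9 were above 0, with a median of 0.96, and 2 had an unadjusted p under 0.05. Within a genotype, 4 members were higher in WT at that threshold, where 5.32% of probes were, and 1 in KO, where 3.71% were, and no member was called in either (0% and 0.00389% of probes). The WT count was 1 without experiment 1, 1 without a block, 1 when the block was the slide and 0 by the methods' t-test. In either direction 2288, 2173, 3529 and 2123 probes were under that threshold there, against 3098 in the main fit. The KO count was 1 without experiment 1, where Thbs1 was also lower (−0.98), and 5 without experiment 3. It was 0 without a block, 3 when the block was the slide and 1 by the methods' t-test. For these 5 settings the probes numbered 1505, 2521, 1435, 2502 and 1293, against 2181 in the main fit. With the slide as the block the KO count was thus above the WT count. In the 6 comparisons of an HFD with a chow array of the same genotype and experiment, Tnc, Thbs4 and Sparc were above 0 in 6 of 6, as were 5.58% of probes.

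**Figure D3:**
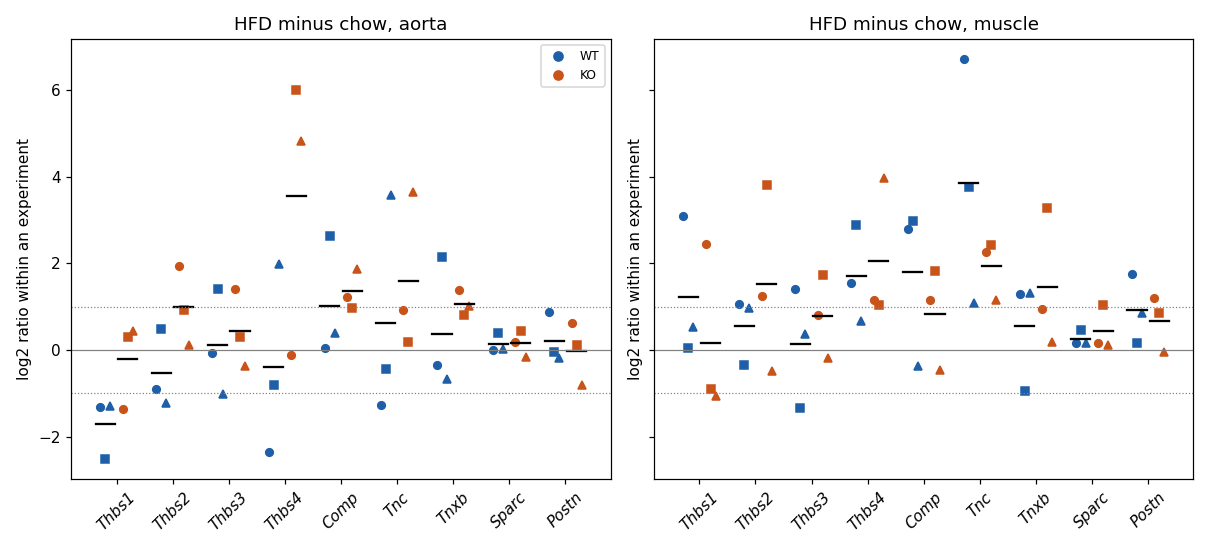
Log2 ratio of HFD over chow (y axis) in each experiment for each gene, in aorta (1 panel) and muscle (the other), with WT left and KO right of each gene and bars for means of 3. Dotted lines mark ratios of −1 and 1. In muscle all ratios of Tnc, Thbs4 and Sparc lie above 0, and in aorta those of Comp do.

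Tnc in muscle, in experiments 1, 2 and 3, had levels of −8.42, −8.19 and −4.51 in WT chow and −1.69, −4.42 and −3.42 in WT HFD, and of −4.05, −5.59 and −5.43 in KO chow and −1.80, −3.16 and −4.27 in KO HFD. In WT every HFD array lay above every chow array, the nearest pair being −4.42 and −4.51, and in KO only the HFD array of experiment 3 fell among the chow arrays. How many of all probes separate in this way was not computed. The log2 ratios of HFD over chow were 6.72, 3.77 and 1.1 in WT and 2.25, 2.43 and 1.15 in KO. Averaged over genotypes, Tnc was 2.90 higher on HFD on the log2 scale (SE 0.66, limma adjusted p = 0.128), and 2.11 without experiment 1. A second Tnc probe, well above background on 0 of 12 muscle arrays, gave 0.18. The WT value of 3.86 (adjusted p = 0.225), which was 2.43 without experiment 1, rests on chow arrays of which 2 were not well above background. With those raised to the lowest signal well above background on their arrays, the WT ratios were 4.46, 2.86 and 1.1, with a mean of 2.80 ± 1.68 (SD, n = 3), and the mean of the genotypes was 2.37, or 5.18-fold.

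Thbs4 in muscle, in experiments 1, 2 and 3, had levels of 2.64, 0.17 and 2.13 in WT chow, 4.19, 3.07 and 2.81 in WT HFD, 3.35, 2.40 and −0.79 in KO chow and 4.51, 3.45 and 3.20 in KO HFD. All WT HFD arrays were above all WT chow arrays, whereas the KO chow array of experiment 1 reached into the KO HFD range. The share of all probes so separated was not computed. The ratios were 1.56, 2.89 and 0.68 in WT and 1.15, 1.05 and 3.98 in KO, each above 0. The mean of the genotypes was 1.89 (SE 0.46, limma adjusted p = 0.146) and 2.15 without experiment 1, and a second probe gave 2.10 (adjusted p = 0.187). By the rule of a ratio past 1 in each of 3 experiments, Tnc and Thbs4 passed in KO muscle, where 0.459% of probes did, and Tnc alone passed in WT muscle, where 0.872% did.

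Comp and Postn also had unadjusted p-values under 0.05 in muscle, but not all of their ratios were above 0. Comp had ratios of 2.79, 2.98 and −0.37 in WT and 1.15, 1.82 and −0.47 in KO, with a mean of 1.32 (SE 0.51, limma adjusted p = 0.271) and of 0.99 without experiment 1. In both genotypes experiment 3 went against the others. Postn had ratios of 1.76, 0.15 and 0.86 in WT and 1.20, 0.86 and −0.054 in KO, with a mean of 0.80 (SE 0.26, adjusted p = 0.223), which was 0.45 without experiment 1. The ratios of Sparc were small and all positive, 0.16, 0.46 and 0.16 in WT and 0.16, 1.05 and 0.12 in KO, with a mean of 0.35 (adjusted p = 0.384) and of 0.45 without experiment 1. A second Sparc probe, well above background on 24 of 24 arrays, had a mean of 0.15, with 0.28 in WT and 0.020 in KO. The means of the remaining members, Thbs1, Thbs2, Thbs3 and Tnxb, were 0.69, 1.05, 0.46 and 1.01, with standard errors of 0.40 to 0.58 and adjusted p from 0.348 to 0.595. Without experiment 1 these were −0.35, 0.99, 0.14 and 0.96. A second Tnxb probe, well above background on 6 of 12 muscle arrays, had a mean of −0.14, with −0.99 in WT and 0.71 in KO.

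In aorta, too, none of the 9 members was called, where 0.0309% of 25865 probes were, and the median of their means was 0.27 against 0.012 over all probes. Of the members 8 were above 0, where 51.1% of probes were, and 7 of 9 were without experiment 1. At an unadjusted p under 0.05 there were 2 members by their brightest probes, Comp above 0 and Thbs1 below it, where 8.45% and 6.68% of probes did. Within a genotype, Thbs1 was lower in WT at that threshold (2.68% of probes), Thbs4 and Comp were higher in KO (6.24%), and no member was called (0% of probes in either).

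Comp in aorta had levels in experiments 1, 2 and 3 of 4.50, 2.54 and 3.75 in WT chow and 4.54, 5.17 and 4.15 in WT HFD, and of 3.75, 4.65 and 2.19 in KO chow and 4.97, 5.62 and 4.06 in KO HFD. The diets overlapped in both genotypes when experiments are set aside, but every HFD array exceeded the chow array of its own experiment, as 5.77% of probes did. The ratios were 0.041, 2.64 and 0.40 in WT and 1.23, 0.96 and 1.87 in KO, with a mean over genotypes of 1.19 (SE 0.37, limma adjusted p = 0.247) and 1.47 without experiment 1. Comp was thus above 0 in 6 of 6 aortic and 4 of 6 muscle ratios.

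Thbs4 in aorta was at 2.64, −2.39 and −3.55 in KO chow and 2.52, 3.61 and 1.27 in KO HFD, in the order of experiments, and at 4.20, 1.1 and −0.42 in WT chow and 1.85, 0.29 and 1.57 in WT HFD. Both low KO chow arrays were those of experiments 2 and 3, and the array of experiment 1 lay within the HFD range. The KO ratios of −0.12, 6.00 and 4.83 averaged 3.57 (SE 1.26, limma adjusted p = 0.416), with 5.41 without experiment 1 and 2.35 without experiment 2, and a second probe gave 1.77 (adjusted p = 0.420). The WT ratios were −2.35, −0.82 and 1.99. The genotypes' responses differed by 3.96 (SE 1.78) and by 4.83 without experiment 1, and the difference was not called. For this difference the second probe gave 1.29 (SE 0.90). In WT it gave a diet value of 0.48, where the first probe averaged −0.39.

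Thbs1 in aorta had a lower mean on HFD in WT, with an unadjusted p under 0.05. Its levels were −3.17, −1.49 and −2.24 in WT chow and −4.49, −4.0 and −3.52 in WT HFD, which did not overlap, and −2.12, −3.03 and −1.72 in KO chow and −3.47, −2.73 and −1.28 in KO HFD, which did. For such a lack of overlap the share of all probes was not computed. The WT mean ratio of −1.71 had a limma adjusted p of 0.558 and was −1.90 without experiment 1, and the difference of the genotypes' responses was 1.5 (SE 0.63, and 2.27 without experiment 1). In KO the Thbs1 ratio averaged −0.20. The platelet marker list averaged −1.15 in aorta over the genotypes and was above 0 in 1 of 6 pairs. By experiment the list had −1.45, −1.19 and 0.25 in WT and −2.92, −1.21 and −0.38 in KO. On an aortic array 4 to 6 of its 7 markers were well above background. The part of platelets in the Thbs1 ratio was not tested. In WT aorta Thbs1 was the only member past 1 in all 3 experiments, below −1, as were 0.858% of probes. Tnc in aorta had ratios of −1.27, −0.43 and 3.58 in WT and 0.92, 0.20 and 3.65 in KO, with only those of experiment 3 above 1. The aortic means of Postn, Sparc, Thbs2, Thbs3 and Tnxb were 0.10, 0.15, 0.22, 0.27 and 0.72, with adjusted p from 0.418 to 0.889, and without experiment 1 they were −0.23, 0.17, 0.074, 0.079 and 0.82. A second Tnxb probe gave 0.12. Averaged over the genotypes, Thbs4 had 1.59, the largest mean of the members in aorta, Tnc 1.11 and Thbs1 −0.96. The second Thbs4 probe had 1.12 (limma unadjusted p = 0.042, adjusted p = 0.316).

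Set directly against each other, the diet differences of the tissues (aorta minus muscle) were below 0 for the brightest probe of 9 of 9 members, where 50.4% of probes were above 0, and for 7 of 9 without experiment 1. A second Tnxb probe had 0.26. Tnc had −1.80 (limma adjusted p = 0.670), or −0.36 without experiment 1, and rests in part on muscle arrays at background. Thbs1 had −1.65 (limma adjusted p = 0.534), which was −0.42 without experiment 1. The unadjusted p of Thbs1 alone was under 0.05, as for 3.99% of probes, and no member was called, nor any probe (0%). In muscle the difference between the genotypes' diet responses was −1.92 for Tnc (SE 1.31) and 0.35 for Thbs4 (SE 0.93), and −0.64 and 0.73 without experiment 1. With the dim Tnc arrays raised to the lowest signal well above background, the Tnc value was −0.86. No such difference was called in either tissue, among members or among all probes (0%).

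Markers of other cell types also differed between the diets in muscle, beside these genes. In muscle the mean of 12 fibroblast markers was 1.06 higher on HFD, from 0.15 to 1.99 over 6 of 6 pairs, with 8 of 12 higher at an unadjusted p under 0.05 and none called. The 11 tendon and cartilage markers, whose tissue is a known source of Thbs4 and Comp, averaged 1.24 higher (0.32 to 2.42, 6 of 6), and Cilp, a cartilage matrix gene, was called at 2.70 (adjusted p = 0.0416). The macrophage list averaged 1.57 and was above 0 in 5 of 6 pairs but ran from −2.48 to 3.08. On a muscle array 2 to 9 of the 9 macrophage markers and 6 to 11 of the 11 tendon and cartilage markers were well above background. The endothelial list was at −0.073 and the pericyte list at −0.57. In aorta the fibroblast list averaged 0.58 (5 of 6 above 0), the tendon and cartilage list 0.70 (4 of 6), the macrophage list −0.71 (1 of 6) and the endothelial list −0.72 (1 of 6). There the adipocyte list averaged −2.65 (0 of 6), the Schwann cell list 0.96 (6 of 6) and the pericyte list 0.38 (6 of 6). On an aortic array 4 to 9 of the 9 macrophage markers and 4 to 5 of the 6 Schwann cell markers were well above background. The part of these cell types in the diet differences of the members was not tested.

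**Figure D4:**
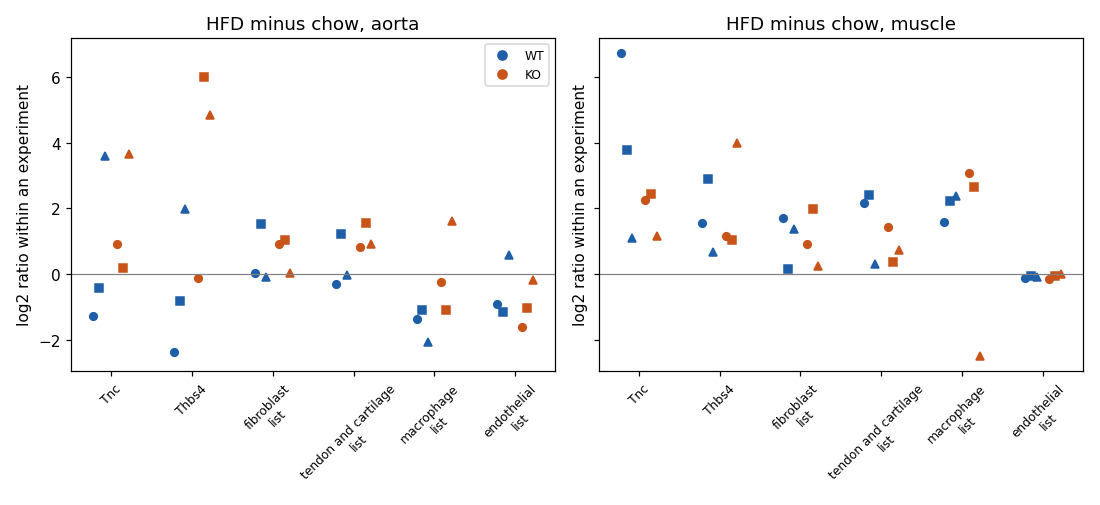
Log2 difference between HFD and chow (y axis) in each experiment for Tnc, Thbs4 and the mean of the fibroblast, tendon and cartilage, macrophage and endothelial marker lists, in aorta (1 panel) and muscle (the other). In muscle Tnc, Thbs4, fibroblast and tendon and cartilage values are above 0 in 6 of 6 pairs, and the endothelial list stays near 0, with a mean of −0.073.

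Between the genotypes no member was called within any tissue and diet, where 0.0116% of probes were in the chow aorta, 0.00387% in the HFD aorta and 0% in muscle of either diet. Of the members, Postn had the most pairs on 1 side. It was higher on the KO than on the WT array in 11 of 12 pairs matched for tissue, diet and experiment, as 1.34% of probes were in 11 or more. The mean was 0.70, with a range of −0.28 to 1.89. In experiments 2 and 3 alone Postn was higher in 7 of 8 with a mean of 0.79, but so was Sparc, with a mean of 0.16. The share of all probes at 7 of 8 was not computed. Aortic and muscle pairs came from the same mice, so they are not independent.

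The Postn differences between KO and WT in experiments 1, 2 and 3 were 0.67, 0.45 and 1.23 in the chow aorta and 0.41, 0.62 and 0.62 in the HFD aorta. In muscle they were 0.78, 1.18 and 0.63 on chow and 0.22, 1.89 and −0.28 on HFD. The 1 pair below 0 was that of the HFD muscle in experiment 3. The means were 0.78 (SE 0.47), 0.55 (0.47), 0.86 (0.61) and 0.61 (0.61) in that order, and none passed the unadjusted threshold. With experiment as a block, Postn and Thbs4 passed it in the chow aorta, where 1559 of 25865 probes did, against 1140 without the block. Thbs1 and Thbs2 passed it in the HFD aorta, where 452 probes did, against 297 without the block. None was called (limma adjusted p = 0.818 for Postn and 0.821 for Thbs4). Tnc was higher in KO in 9 of 12 pairs (mean 1.1) and Thbs1 in 8, while the other members were higher in 4 to 7. The largest Tnc differences, 4.36 and 2.61 in the chow muscle of experiments 1 and 2, rest on WT arrays not well above background. In experiments 2 and 3 alone Sparc was higher in 7 of 8, Tnc in 6 of 8 and Thbs1 in 4 of 8. Without the block the only unadjusted p under 0.05 was that of Thbs1 in the HFD aorta, where KO exceeded WT by 1.51 (SE 0.61), or 1.76 without experiment 1, beside 0.518% of probes. Thbs4 in the chow aorta had KO minus WT values of −1.56, −3.49 and −3.14 in the 3 experiments, with a mean of −2.73 (SE 1.51). The second Thbs4 probe, well above background on all 12 aortic arrays, gave only −0.44 (SE 0.78), so the size of this difference depends on the probe.

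Over the 24 arrays the members with steep tissue differences ran together. Pearson's r was 0.97 between Thbs3 and Tnxb, 0.94 between Thbs2 and Tnxb and 0.91 between Thbs3 and Comp. Among 14424 genes, the 3 most like Thbs3 were Nupr1, Mfap5 and Adamts2 (r of 0.99 each), those most like Tnxb were Col5a1, Igsf10 and Lrrc17 (0.98) and those most like Comp were Igf1, Bcat1 and Cfb (0.96). Postn was most like Emb, Vcam1 and Ctsc (0.92, 0.92 and 0.91) and Thbs2 most like Larp6, Tnxb and Tenm3 (0.96, 0.94 and 0.94). The remaining members had lower values. Tnc was most like Brip1, Msr1, a macrophage scavenger receptor, and Ubd (0.83, 0.82 and 0.78), Thbs1 most like Rgs16, Ocln and Prune2 (0.87, 0.75 and 0.75), Thbs4 most like Atxn1l, Zfp266 and Kdm4a (0.83, 0.82 and 0.80) and Sparc most like Atp6v0e, Ccnq and Bcap31 (0.91, 0.88 and 0.88). All arrays share the amplification and scaling, and these values are descriptions over 24 arrays. Both tissues are among them, so for members with steep tissue differences r in part restates that difference. After group means were removed, r in muscle and aorta was 0.86 and 0.83 between Thbs3 and Tnxb. It was 0.97 and 0.63 between Thbs2 and Tnxb, and 0.58 and 0.76 between Thbs3 and Comp.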

How the data were processed

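Per the file headers, Agilent Feature Extraction 10.5.1.1 made each array's spot intensities (mm9 design). The submitters' log2 values are deposited too: log2 of the same processed intensities plus 1 constant per array, with no column left unused. Levels are log2(processed intensity) minus the array's 75th percentile over non-control spots, without outlier spots and with spots of a probe averaged. Probes were tested if all arrays of 1 group or more of the tissue had them well above background (any of 8 groups for both). limma 3.58.1 (R 4.3.3) tested diet per tissue with genotype and experiment as a block, genotype and tissue as contrasts of group means, and diet between tissues with the 12 diet pairs as blocks. Calls are Benjamini-Hochberg adjusted p under 0.05 over all probes tested. Scripts were tested on simulated data.

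Each of 6 slides held 1 tissue and 1 experiment, so tissue and slide cannot be told apart except as a random block (correlation 0.28). Experiment 1 was scanned in the first of 2 sessions, and its layout on the slides differed from that of experiments 2 and 3. In both tissues WT chow, WT HFD, KO chow and KO HFD lay at positions 2, 4, 1 and 3 in experiment 1. In experiments 2 and 3 they lay at positions 4, 2, 3 and 1. Deviations of same-experiment samples from their group means correlated at 0.0077 to 0.37 for HFD and chow in aorta, 0.038 to 0.46 in muscle, 0.064 to 0.62 for KO and WT in aorta, 0.29 to 0.52 in muscle and 0.072 to 0.40 for aorta and muscle of the same mice. Precision is limited by the number of arrays.

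The members and gene lists were chosen with earlier results of these data known. Genes named from a list are up to 5 called by size, and for likeness the 3 highest Pearson r. Alternatives were quantile normalization, normexp with an offset of 50, the deposited log2 table, other filters, leaving out each experiment, other blocks, the methods' t-test and their criterion of a ratio past 1 in 3 experiments. Flooring dim spots was added after seeing the data. Figures used Python 3.11.15 and matplotlib 3.10.9.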

Additional observations from a re-analysis of the deposited data

Results flagged for a closer look

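The diet ratios of Thbs1 had opposite signs in the tissues of WT mice. In WT aorta the ratio of HFD over chow was below 0 in all 3 experiments, with a mean of −1.71, and in WT muscle it was above 0 in all 3, at 3.09, 0.05 and 0.53, with a mean of 1.22, or 0.29 without experiment 1. The difference of these means, −2.93, was not tested for WT alone. Thbs1 was picked out from among the members because its ratios had these opposite signs, so the pattern was selected after seeing the data. How often such signs would arise by chance among the members was not estimated. The share of all probes with such signs was not computed. Averaged over the genotypes the tissues differed by −1.65 (limma adjusted p = 0.534), and by −0.42 without experiment 1. The muscle chow array of experiment 1 was not well above background for Thbs1, and with its value raised to the lowest signal well above background on that array the ratio was 2.99.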

How the results depend on the processing

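In the tissue comparison Thbs2, Thbs3, Comp, Tnxb and Postn were called under every alternative that kept their probe, and the number of members called, 7 as reported, was 8 with quantile normalization, 6 with normexp, 5 when a probe had to be well above background on every array and 5 with the slide as a random block. Leaving out 1 experiment gave 5 to 8, and the replicate block of the same mice 7. Tnc lost its call with normexp (0.86, adjusted p = 0.060), and Sparc had 0.26 (adjusted p = 0.031) with quantile normalization. The deposited table moved the median of all probes from −0.27 to −0.0076 and the share of higher among called probes from 34.6% to 58.9%, and quantile normalization gave 40.7%. Probes called in the tissue comparison numbered 12630, against 7715 with the slide as a random block. The second Thbs4 probe reversed the tissue difference (0.95), as did the Thbs1 probe that was well above background on no array (−0.13).

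No member was called in a diet or genotype comparison by any alternative that adjusts p, the methods' t-test after Benjamini-Hochberg included, nor with experiment as a replicate block (0 members). By the study's criterion 2 members passed in KO muscle, 1 in WT aorta and 1 in WT muscle. Over all probes the muscle diet calls, 74 as reported, were 0 without any 1 experiment, 1 with no filter, 221 with normexp, 247 with the filter on every array and 274 with the replicate block by slide, and the aortic calls, 8, ranged from 0 to 58. The tissue comparison had 8 member results at an unadjusted p under 0.05, and 71 of their 78 recomputed values stayed under it, while of 164 recomputed values of 16 such diet or genotype results 120 did and 44 did not. Of 1020 recomputed values of the other 102 results, 67 changed sign. The causes were not tested. Signal over background limits Tnc and Thbs1, which had muscle arrays at background.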

Other observations

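Among other matricellular genes in muscle cells, Spock2, which encodes the proteoglycan testican-2, was called lower on HFD at −1.79 (limma adjusted p = 0.0358), the 1 call among 18 tested. At an unadjusted p under 0.05, 5 were higher, Ccn5 at 1.92 (adjusted p = 0.0984), Fstl1 at 0.70 (adjusted p = 0.116), Tgfbi at 1.14, Ccn4 at 1.56 and Smoc2 at 1.83. In aorta 0 of 20 were called and 5 were higher at an unadjusted p under 0.05. There Ccn4, a WNT-induced CCN protein, had 2.36 (adjusted p = 0.144) and Matn2, a matrilin, 1.52 (adjusted p = 0.195). No receptor of the members and no gene of the TGF-beta axis was called with diet in either tissue, with unadjusted p under 0.05 in 4 of 22 receptors in aorta, 8 of 20 in muscle, 4 of 20 TGF-beta genes in aorta and 0 of 20 in muscle.

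After each group's mean was removed, which takes out tissue, diet and genotype, some members still ran together over the 12 arrays of a tissue. In muscle r was 0.97 between Thbs2 and Tnxb, 0.87 between Thbs3 and Postn, 0.87 between Comp and Tnc and 0.86 between Thbs3 and Tnxb. In aorta it was 0.83 between Thbs3 and Tnxb and between Comp and Tnxb, and negative between Thbs1 and Thbs3 (−0.88), Thbs1 and Thbs2 (−0.85) and Thbs4 and Postn (−0.87). The arrays of a slide share an experiment, and these are descriptions without a test.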
